A study of Mus musculus with 4 samples.

Results

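The genes described here are the protein components of the cytosolic ribosome and the factors that start and extend a protein chain, measured in mouse liver. A gene was taken as a member when its only symbol in the platform annotation began with Rpl, Rps (without the Rps6k kinases), Rplp, Eif (without the Eif2ak kinases) or Eef followed by a digit. This gave 79 of 8251 genes, and of several probe sets for a gene the one brightest on average over the 4 arrays was used. They are 16 large-subunit proteins, the stalk protein Rplp0, 17 small-subunit proteins, 37 genes named for initiation factors and 8 named for elongation factors. A few symbols that fit the rule belong to partners rather than to the machinery itself, such as Eif4ebp1 and Eif4ebp2, which bind and hold back the cap-binding protein, Eef2k, the kinase of elongation factor 2, and Eef1akmt1, a methyltransferase. Membership rested on names only, and measured signal entered only in the choice of probe set.

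MG_U74Av2 oligonucleotide arrays were hybridised with total liver RNA from male mice of strain C57BL/6, 1 array for each of 4 groups. Livers were taken at zeitgeber time (ZT, hours after lights on) 2 or 14, early in the light phase and early in the dark phase. At each time one array came from sham-operated mice, which had standard chow and water, and one from adrenalectomised mice (ADX), whose adrenal glands had both been removed through a dorsal approach and which had chow and 0.9% NaCl to drink. Anaesthesia for adrenalectomy was 91 mg/kg ketamine with 3.6 mg/kg xylazine, and the labels describe none for the sham animals. Neither the age of the mice nor the number of animals behind each array is given. With 1 array per group there is no spread between replicates, so differences between single arrays are described by size and carry no p-value.

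Ribosomes are built from a small subunit, which reads the messenger RNA, and a large subunit, which joins the amino acids. Initiation factors bring the first tRNA and the capped messenger to the small subunit, and elongation factors deliver each further tRNA and move the ribosome along. Liver makes large amounts of secreted protein, and ribosomal protein messengers are among the most abundant in the tissue. Many of them begin with a C followed by an unbroken run of pyrimidines (a terminal oligopyrimidine start), through which their translation is regulated without a change in messenger level, in liver among other tissues according to feeding. The arrays measure the level of the messenger and not its translation.

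The reference sequence around the annotated starts was searched for such runs of pyrimidines, without asking for a C at the first base. The windows below hold 15 bases before and 15 bases from the annotated transcription start, 5′ to 3′ on the strand of the gene, with the longest run of C and T in capitals. They are RefSeq sequences of build GRCm38.p6 for some of the genes described below, and all but Rps19 hold a run of at least 8. They do not stand for their classes. The abundant Rplp0, Rpl41 and Rps3a1, for instance, are not shown and hold no such run.
Rpl7a, chr2:26910792-26910821, plus strand: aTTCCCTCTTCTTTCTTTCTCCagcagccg
Rpl13a, chr7:45128731-45128760, minus strand: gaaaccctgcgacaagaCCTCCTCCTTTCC
Rps10, chr17:27635230-27635259, minus strand: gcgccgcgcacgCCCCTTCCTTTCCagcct
Rps18, chr17:33955651-33955680, minus strand: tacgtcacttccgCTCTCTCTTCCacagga
Rps24, chr14:24490663-24490692, plus strand: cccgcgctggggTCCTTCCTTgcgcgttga
Rps27, chr3:90213634-90213663, minus strand: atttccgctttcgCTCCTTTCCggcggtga
Rps19, chr7:24884577-24884606, plus strand: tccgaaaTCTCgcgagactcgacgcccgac
Eef1a1, chr9:78481710-78481739, minus strand: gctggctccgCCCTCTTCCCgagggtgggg
Eef1a2, chr2:181157001-181157030, minus strand: TCTCTCCTggtctgcgttctcgctcactgg

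A run of at least 8 pyrimidines (C or T in any order) on the gene's strand was present in this window in 21 of the 64 members with a promoter in the RefSeq table, which is 32.8%. Among the ribosomal proteins it was 11 of 27 (40.7%), and among the factors 10 of 37 (27%). Over all 27025 genes of the table the share was 13.9%, and over the genes of the array it was 15.5%. On the opposite strand the same search gave 10.9% for the members and 15.3% for all genes. The Rps19 start printed above is the first of 3 annotated ones, and none of them held a run of 8. The Eef1a2 run lies wholly before the annotated start. The Rps24 start is the first of 2. A gene with several annotated starts was counted when any of them held the run, and genes without an entry were not searched. The 14 members with a run that were Present on every array had a median log2 difference from ZT2 to ZT14 of -0.07 in sham and -0.15 in ADX, against -0.02 and 0.00 for the 35 without one. These are medians of a few genes on single arrays and the difference between them was not tested.

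Of the 79 members, 62 were called Present on at least 1 array and 60 on all 4, while 17 were Present on none. The arrays detected similar numbers of members, 61 or 62 each, and between 5543 and 5865 of all probe sets. The ratio of 3' to 5' signal of the actin control lay between 1.69 and 1.89, and that of Gapdh between 0.91 and 1.03. All 10 hepatocyte markers were Present on every array, with a summed signal of 33100 to 36100. The summed signal of 12 macrophage markers ranged from 1310 to 1540, and that of 6 erythroid markers from 1220 on the sham ZT14 array to 2200 on the ADX ZT14 array. Of the markers of lymphocytes 2 of 10, of neutrophils 1 of 8 and of exocrine pancreas 2 of 6 were Present anywhere. The clock output genes Dbp (1.2 and 98.2 signal units in sham, 0.8 and 115.8 in ADX, at ZT2 and ZT14, Absent at ZT2) and Tef (35.0 and 208, 21.0 and 197) separated the times as labelled in both pairs. The part of other cell types in the results below was not tested, and in whole liver fewer cells of a type and less messenger per cell cannot be told apart.

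Few members differed strongly between any of the arrays. A gene was counted as past 2-fold when its signal on one array was at least 2 times that on the other, with a Present call on the brighter one. Between ZT2 and ZT14 in sham 1 of 62 measured members was past 2-fold (Eef1a2, higher at ZT14), against 5.57% of all measured probe sets. In ADX none was, against 4.97%. Between ADX and sham at ZT2 none was, against 2.43%, and at ZT14 there were 3 of 62 (Rpl22 and Eif4e higher in ADX, Eef1a2 lower), against 3.71%. At 1.5-fold the counts were 6, 5, 2 and 3 of 62 in the same order, against 16.9%, 15.7%, 9.81% and 13.1% of all measured probe sets. The median log2 difference over the 62 measured members was -0.02, 0.00, 0.05 and -0.01, and that over all measured probe sets was 0.00, 0.01, 0.01 and 0.02. The shares were not matched for signal, and dim probe sets supplied most of the calls. Among probe sets of other genes in the sham pair, those with a mean under 100 units gave 174 of 210 higher and 125 of 156 lower past 2-fold.

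**Figure D1:**
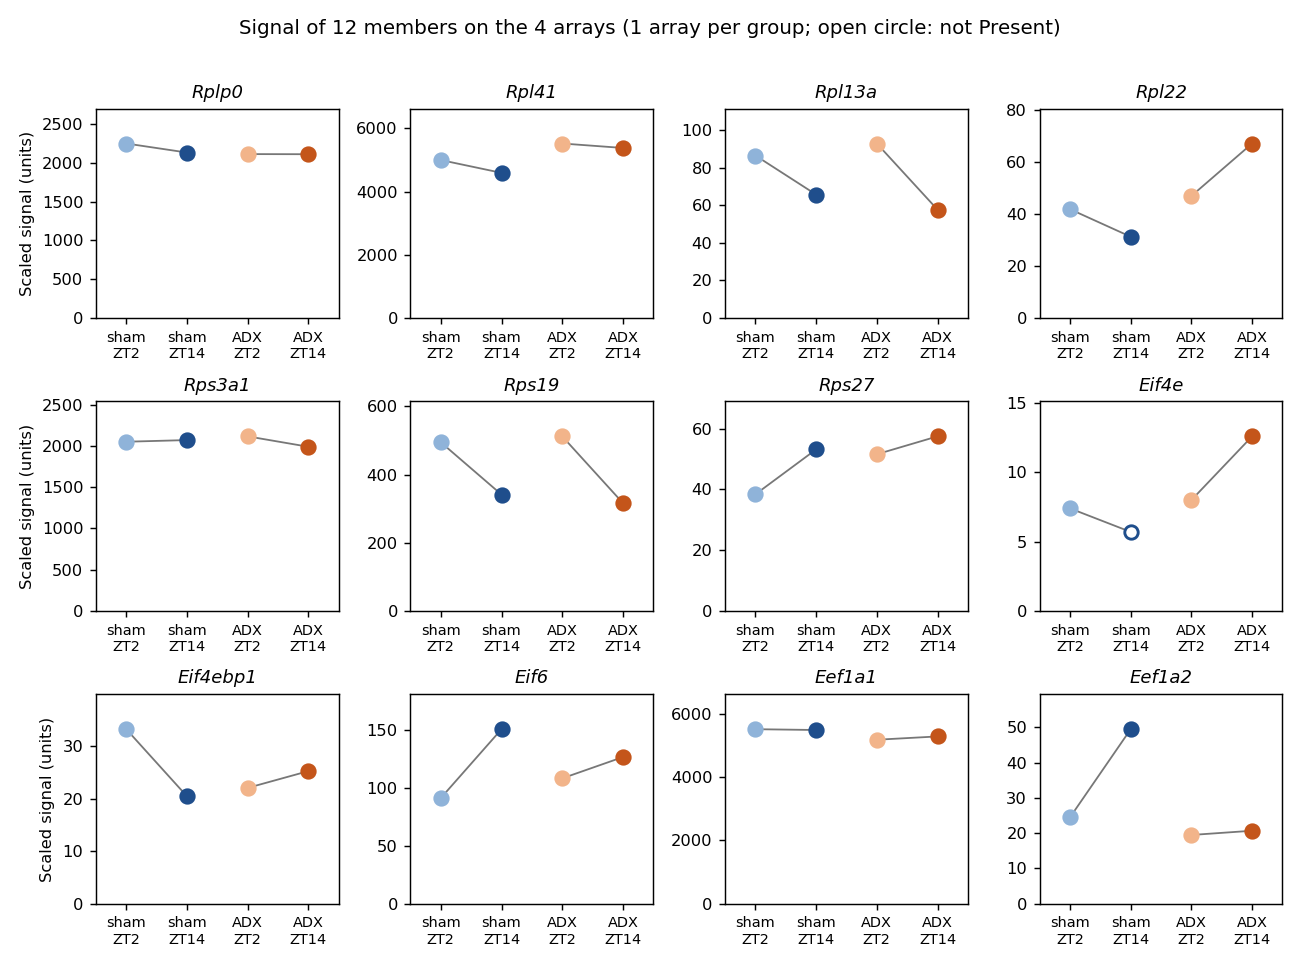
Scaled signal (units, linear axis from 0) of 12 members on the 4 arrays, sham in blue and ADX in orange, with ZT2 in the lighter and ZT14 in the darker shade, a line joining the 2 times of each operation and an open circle for a signal not called Present. Each point is 1 array, so there are no error bars. Rplp0, Rps3a1 and Eef1a1 stay nearly level, Rps19 and Rpl13a are lower at ZT14 in both pairs, and Eef1a2 is high on the sham ZT14 array alone.

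The large-subunit proteins were led by abundant, nearly level transcripts. Signals are given throughout for sham first and ADX second, each with ZT2 before ZT14. Rpl41, a very short basic protein of the subunit, had 4998, 4593, 5522 and 5381 signal units, through a probe set whose design allows cross-hybridisation within a family. The ADX arrays were the brighter pair and all 4 lay within 1.2-fold. Rpl7a read 1345, 1286, 1352 and 1289.9, a spread of 1.05-fold. Rplp0, the stalk protein that recruits elongation factors and a common reference gene in liver PCR, gave 2249.6, 2133, 2113 and 2112, a spread of 1.07-fold. Rpl6, Rpl7, Rpl8, Rpl10a and Rpl19 spread by 1.12-fold to 1.14-fold.

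The large-subunit members under 500 units moved more. Rpl13a, which in other cells also leaves the ribosome to silence inflammatory messengers, was read at 86.5, 65.7, 92.9 and 57.7 units. Both ZT14 arrays lay below both ZT2 arrays, by 1.32-fold in sham and 1.61-fold in ADX. Rpl22, a protein that ribosomes can function without, was read at 41.9, 31.3, 47.0 and 67.2 units. It was 1.34-fold lower at ZT14 in sham, 1.43-fold higher at ZT14 in ADX, and 2.15-fold higher in ADX than in sham at ZT14. The other Rpl22 probe set was Absent on every array, and in the signals as deposited the ZT14 difference was 0.98 on the log2 scale, just short of 2-fold. Rpl7l1, a relative of Rpl7 that acts in assembly of the large subunit, also ran in opposite directions, with 25.3, 36.4, 34.0 and 28.1 units. Rpl37a (364, 316, 356 and 419 units) was 1.33-fold brighter in ADX than in sham at ZT14. Rpl32, a frequently used reference gene, had only 26, 28, 18 and 26.4 units on its probe set, with the ADX ZT2 array the lowest.

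Among the small-subunit proteins the largest day-night difference seen in both pairs was that of Rps19, a protein needed for maturation of the small-subunit RNA. Its signal was 494, 341, 512 and 316 units. The ZT2 arrays lay close together and above both ZT14 arrays, which were lower by 1.45-fold in sham and 1.62-fold in ADX. No member passed 1.5-fold in the same direction in both pairs, and Rps19 missed it only in sham. Rps27, which has the run of pyrimidines shown above, was read at 38.4, 53.2, 51.6 and 57.5 units, with sham ZT2 the lowest. Rps4l had 181, 110.0, 149 and 141 units, 1.65-fold lower at ZT14 in sham and 1.06-fold lower in ADX, on a probe set that its design marks as shared between transcripts.

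The other small-subunit members that were Present were bright and nearly flat, and 6 were Absent on every array. Rps3a1 had 2051, 2071, 2116 and 1989.5 units. Rps28 spread by 1.05-fold on a family probe set, and its other Present probe set read 1146, 1017, 1026 and 1081 units. Rps3, Rps7, Rps10, Rps18, Rps24 and Rps4x, an X-linked protein, spread by 1.11-fold to 1.18-fold. Of the 11 small-subunit members Present on every array, 8 were lower at ZT14 in sham and 10 in ADX, with a median log2 difference of -0.09 in each. Of all 4877 probe sets Present on every array 2498 and 2450 were lower.

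Taken over both subunits and the stalk, 16 ribosomal proteins had a mean signal of at least 500 units, and their levels lay close together on the 4 arrays. Their brightest and dimmest arrays differed by a median of 1.13-fold and by at most 1.2-fold. For 465 other probe sets of at least 500 units the median was 1.24-fold and the maximum 6.17-fold. These sets were not matched for signal, as the lowest mean was 1050 units among the ribosomal proteins and 501 among the others. The robust SD of the log2 differences across the ribosomal proteins was 0.07 in the sham pair and 0.10 in the ADX pair. For those other probe sets it was 0.21 and 0.22, a difference that was not tested. Within that narrow band 14 of 16 were lower at ZT14 in each pair, with medians of -0.08 and -0.07. Among the 465 other bright probe sets 289 and 283 were also lower at ZT14, with a median of -0.06 in each pair. With quantile normalization the ribosomal proteins split into 8 higher and 8 lower in sham and 6 higher and 10 lower in ADX, so the direction of these differences rests on the scaling. The 22 bright probe sets that carry several symbols, at least 1 of them fitting the rule, gave medians of -0.12 and -0.08, with 15 and 19 lower at ZT14.

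**Figure D2:**
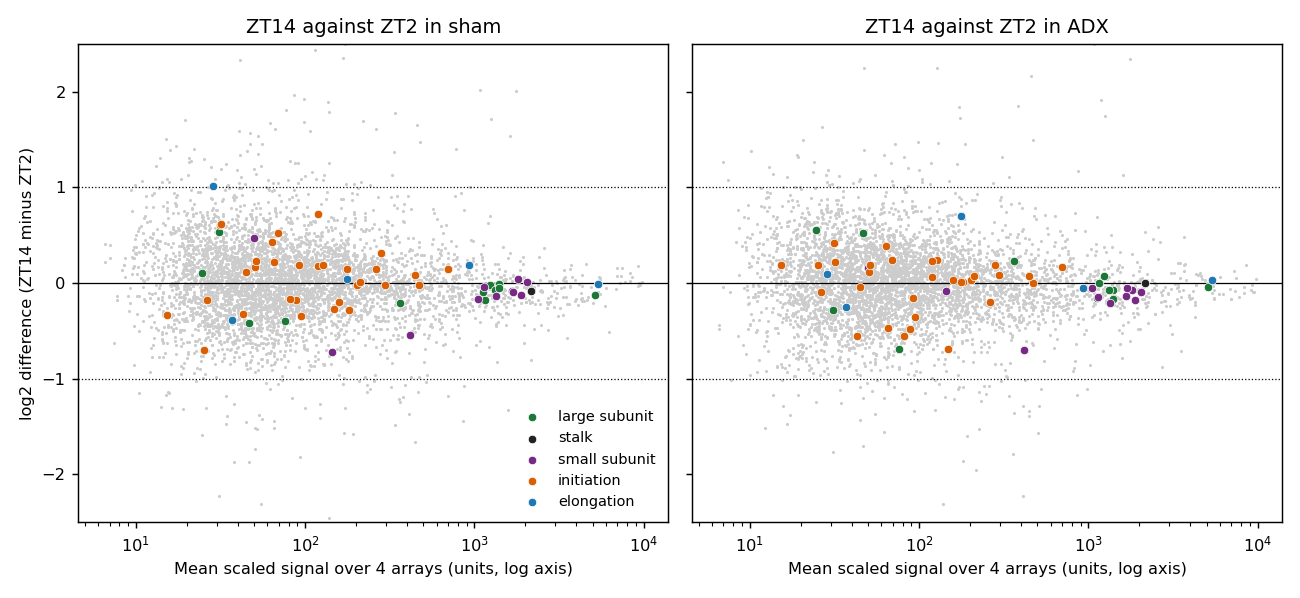
Log2 difference of ZT14 minus ZT2 in sham (left) and ADX (right) against the mean scaled signal over the 4 arrays (log axis), for the members Present on all 4 arrays in colours by class and all other such probe sets in grey, with dotted lines at 2-fold and a few grey points beyond the axes not drawn. The ribosomal proteins above 500 units lie between -0.18 and 0.04 in sham and between -0.21 and 0.07 in ADX, in a narrower band than the grey points around them, and the dimmer members scatter more widely.

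Genes named for initiation factors form the largest class, and none of those Present on every array passed 2-fold in any comparison. Eukaryotic initiation factor 2 (eIF2) carries the first tRNA, and eIF2B reloads it with GTP, the step that stress kinases block. Eif2s2, the beta subunit, was dim at 15.5, 12.3, 15.5 and 17.7 units, and its other Present probe set ran the opposite way in both pairs, with 8.7, 11.3, 16.3 and 9.3 units. Eif2s3x, the X-linked gamma subunit, had 265, 294, 262 and 228 units, with ADX ZT14 the lowest. Its Y-linked partner Eif2s3y read 103, 81.1, 108 and 84.4 units, lower at ZT14 in both pairs, through a family probe set. Eif2a, an alternative tRNA carrier, had 47.9, 52.0, 39.7 and 38.7 units, so both ADX arrays lay below both sham arrays.

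The 4 measured eIF2B subunits were all lower in ADX than in sham at ZT14, with a median log2 difference of -0.32 and a range from -0.44 to -0.22. Of all 4877 probe sets Present on all arrays 2357 were lower in this comparison. A count over 4 genes is small, and the shared direction was not tested. Eif2b4, the delta subunit, had 62.4, 72.8, 74.2 and 53.6 units, and Eif2b1, the alpha subunit, had 61.8, 88.9, 57.4 and 67.7. Eif2b2, the beta subunit, read 48.9, 39.1, 49.3 and 33.6 units, lower at ZT14 in both pairs by 1.25-fold and 1.47-fold. Eif2b5, the catalytic subunit, had 87.9, 100.5, 94.4 and 84.5 units on its brighter probe set. None reached 1.5-fold in any comparison. All 4 were lower in ADX at ZT14 also with quantile normalization, with a median of -0.34. The signals as deposited and a common median shift all genes further down in this comparison. All 4 being lower there too was therefore no check of the direction. At ZT2 their median was 0.06 in ADX against sham. A second Eif2b5 probe set, Present on all arrays, read 37.9, 51.6, 36.7 and 36.8 units, with a log2 difference of -0.49 in ADX against sham at ZT14, larger than that of any probe set used for the 4 subunits.

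The eIF3 complex, which holds the small subunit ready for the messenger, was nearly flat. Of its 10 genes on the array 9 were measured, with median log2 differences of -0.02 and 0.07 for the sham and ADX day-night pairs and of 0.02 and 0.07 for ADX against sham at ZT2 and ZT14. Eif3c read 506, 498, 443 and 441 units and Eif3l 419, 444, 446 and 468. Eif3d and Eif3k spread by 1.09-fold. Eif3a, the largest subunit, was the exception with 86.8, 77.4, 97.1 and 66.2 units, 1.47-fold lower at ZT14 in ADX. Eif3f was Absent on every array.

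The eIF4 genes, whose proteins recognise the cap, unwind the messenger or hold these steps back, counted 8 members Present on all arrays. Of these 5 were higher at ZT14 in sham and 7 in ADX, with medians of 0.23 and 0.19, against 48.8% and 49.8% of all probe sets Present on all arrays. The sham count is close to that share. Eif4a1, the main RNA helicase of initiation, had 57.6, 77.5, 52.3 and 68.7 units, and both ZT14 arrays lay above both ZT2 arrays, by 1.34-fold and 1.31-fold. Its paralog Eif4a2 was also higher at ZT14 in both pairs, by 1.11-fold and 1.12-fold, at 643, 714, 683 and 768 units. Eif4e2, a cap-binding relative that represses translation, had 25.2, 38.5, 26.5 and 35.5 units, 1.53-fold and 1.34-fold higher at ZT14. A second Eif4e2 probe set was Absent on all arrays. Eif4g2, a scaffold that works without the cap-binding protein, read 23.4, 36.1, 31.6 and 36.8 units, with sham ZT2 the lowest.

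The cap-binding protein gene itself, Eif4e, was close to the limit of detection. It was read at 7.4, 5.7, 8.0 and 12.6 units, and the sham ZT14 signal was Absent. ADX was at least 2.22-fold brighter than sham at ZT14. With the floor raised to the 95th percentile of Absent signals, at 23.9 units, its difference was 0, and its other probe set was Absent on every array. The 2 repressors that bind eIF4E were measured on 1 Present probe set each. Eif4ebp1 read 33.3, 20.5, 22.1 and 25.3 units, with sham ZT2 standing above the other arrays, 1.62-fold above sham ZT14 and 1.51-fold above ADX ZT2. Eif4ebp2 read 225, 279, 289 and 329 units, with sham ZT2 again apart but here the lowest. Eif4b, a helper of the helicase, had 187, 154, 195 and 196 units on its brighter probe set, with sham ZT14 the lowest. Its other probe set Present on all arrays disagreed, with 22, 27.2, 24.5 and 29.4 units and sham ZT2 the lowest.

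Of the other initiation genes, Eif6, which keeps the large subunit from joining too early and is known in liver for insulin-dependent control of lipid synthesis, had 91.4, 150.9, 108 and 127 units. It was 1.65-fold higher at ZT14 in sham and 1.17-fold higher in ADX, and the sham ZT14 array was the brightest. Eif1a, a factor that helps the small subunit scan for the start codon, read 157, 130.3, 186 and 116 units, and both ZT14 arrays were lower. A second Eif1a probe set gave 105, 89.9, 123 and 64.9 units, lower at ZT14 in both pairs as well. For its close relative Eif1ax the probe sets disagreed. The brighter one read 98.9, 87.6, 96.6 and 69.2 units, lower at ZT14 in both pairs, and the other, also Present on all arrays, read 37.7, 50.7, 44.8 and 48.2 units, higher at ZT14 in both. Near-identical copies such as these may share signal. Eif5, which triggers GTP use at the start codon, was nearly level at 160.1, 178, 187 and 188 units. Eif5b, which joins the subunits, had 54.3, 63.7, 40.5 and 46.1 units, with both ADX arrays below both sham arrays by 1.34-fold and 1.38-fold.

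Elongation factor 1 alpha, which delivers tRNAs to the ribosome, is encoded by a gene used in most tissues, Eef1a1, and by one characteristic of neurons and muscle, Eef1a2. Eef1a1 was level, at 5514, 5488, 5181 and 5285 units, a spread of 1.06-fold. Eef1a2 was read at 24.5, 49.5, 19.5 and 20.7 units, Present on all arrays. The sham ZT14 array stood alone, 2.02-fold above sham ZT2 and 2.39-fold above ADX ZT14, while the other arrays lay within 1.26-fold of each other. The sham day-night difference of 1.01 on the log2 scale was just past the threshold and ranged from 0.93 to 1.01 over the scalings and floors tried, under 2-fold with quantile normalization and in the signals as deposited. The ADX difference at ZT14 ranged from -1.38 to -1.05 and stayed past 2-fold in each. Only 1 probe set measured the gene.

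Of the 5 elongation members Present on all arrays, Eef1a1 and Eef1a2 included, 4 were lower in ADX than in sham at ZT2 and 5 at ZT14. The median log2 differences were -0.27 and -0.05. Of all 4877 such probe sets 2433 and 2357 were lower. The sign of Eef2 at ZT14 (-0.01) turned with quantile normalization. A count over so few genes is small, and the shared direction was not tested. Eef2, the factor that moves the ribosome by one codon, had 831, 949, 977 and 945 units, with sham ZT2 the lowest and a spread of 1.18-fold. Eef1d, an exchange factor for elongation factor 1, read 194, 199.6, 121 and 196 units, so that the ADX ZT2 array was 1.6-fold below sham at that time and 1.62-fold below ADX ZT14. The methyltransferase gene Eef1akmt1 read 44.8, 34.1, 37.1 and 31.2 units. Eef1b2 and Eef1g, further parts of the exchange complex, were Absent on every array, and Eef2k, the kinase that halts elongation, was Absent on 3 arrays and Marginal on 1.

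The sham and ADX day-night pairs share no array, so the sign of each difference can be read in both. Of 60 members Present on all arrays, 18 were higher at ZT14 in both pairs, 23 lower in both and 19 opposite, which makes 68.3% of the same sign against 62.7% of all 4877 probe sets Present on all arrays. Among the 24 ribosomal proteins 2 were higher in both, 15 lower in both and 7 opposite, and among the 36 factors these counts were 16, 8 and 12. Over all 4877 they were 1493, 1564 and 1820. The ribosomal protein count rests on the scaling. With quantile normalization 13 of 24 were lower at ZT14 in sham and 14 in ADX, with medians of -0.01 and -0.03, in place of 19 and 18. Across the 60 members Pearson's r between the 2 sets of differences was 0.38, against 0.47 over all such probe sets, as a description across genes that share their arrays. Rps19, Rpl13a and Eif1a had the largest decreases in ADX and were lower in sham too, while Eif4e2 and Eif4a1 were the highest of the factors in ADX apart from the dim Eif4e and from Eef1d, and were higher in sham too.

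**Figure D3:**
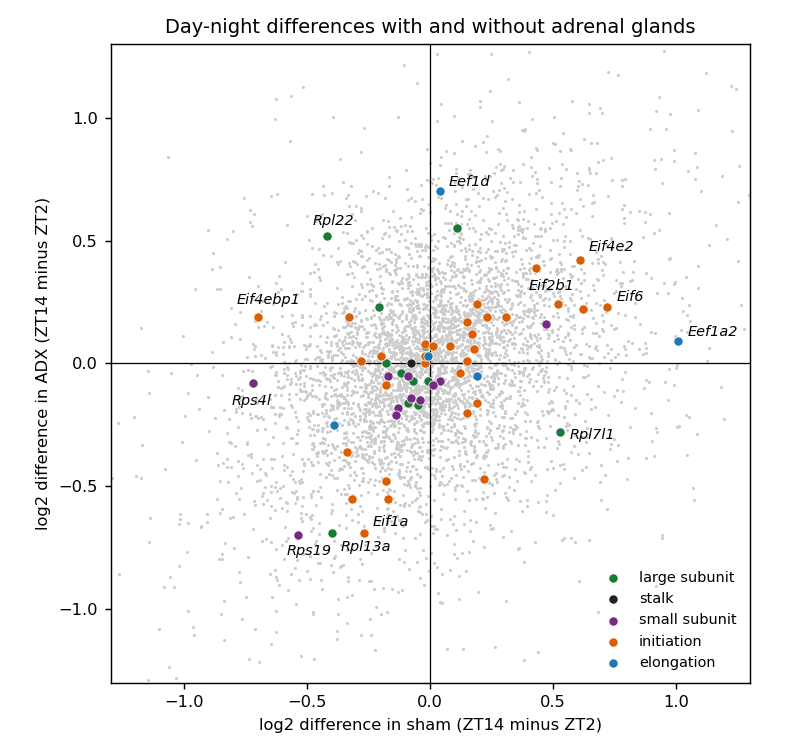
Log2 difference of ZT14 minus ZT2 in ADX (vertical) against the same difference in sham (horizontal) for 60 members in colours by class and all other probe sets Present on all 4 arrays in grey, with points beyond the axes not drawn. Rps19, Rpl13a and Eif1a lie in the lower left, Eif4e2, Eif2b1 and Eif6 in the upper right, and Rpl22 and Rpl7l1 in opposite corners, while most ribosomal proteins gather just below and left of the centre.

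The adrenalectomised and sham livers were also compared at each time. At ZT2 the members lower by at least 1.5-fold in ADX were Eef1d and Eif4ebp1, by 1.6-fold and 1.51-fold, and none was that much higher. Of the 24 ribosomal proteins Present on all arrays 18 were higher in ADX at ZT2, with a median log2 difference of 0.05, and 13 at ZT14, with a median of 0.01. Over all probe sets Present on all arrays 50.1% and 51.7% were higher. In the signals as deposited the ADX arrays are dimmer, with medians of -0.17 and -0.11 over all probe sets Present on all arrays, and the ribosomal proteins had medians of -0.12 and -0.11. Relative to all probe sets the group was thus slightly higher in ADX at ZT2 and level at ZT14. Scaling by a single factor per array moves all its genes alike and could not change this. That holds for the signals as deposited and for a common median (17 of 24 higher at ZT2, median 0.04). Quantile normalization could, and gave 18 of 24 higher at ZT2 with a median of 0.10, against -0.01 over all such probe sets. For the factors the medians were 0.02 at ZT2 and -0.04 at ZT14. Apart from Rpl22, Eif4e and Eef1a2, no measured member differed by 1.5-fold at ZT14.

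**Figure D4:**
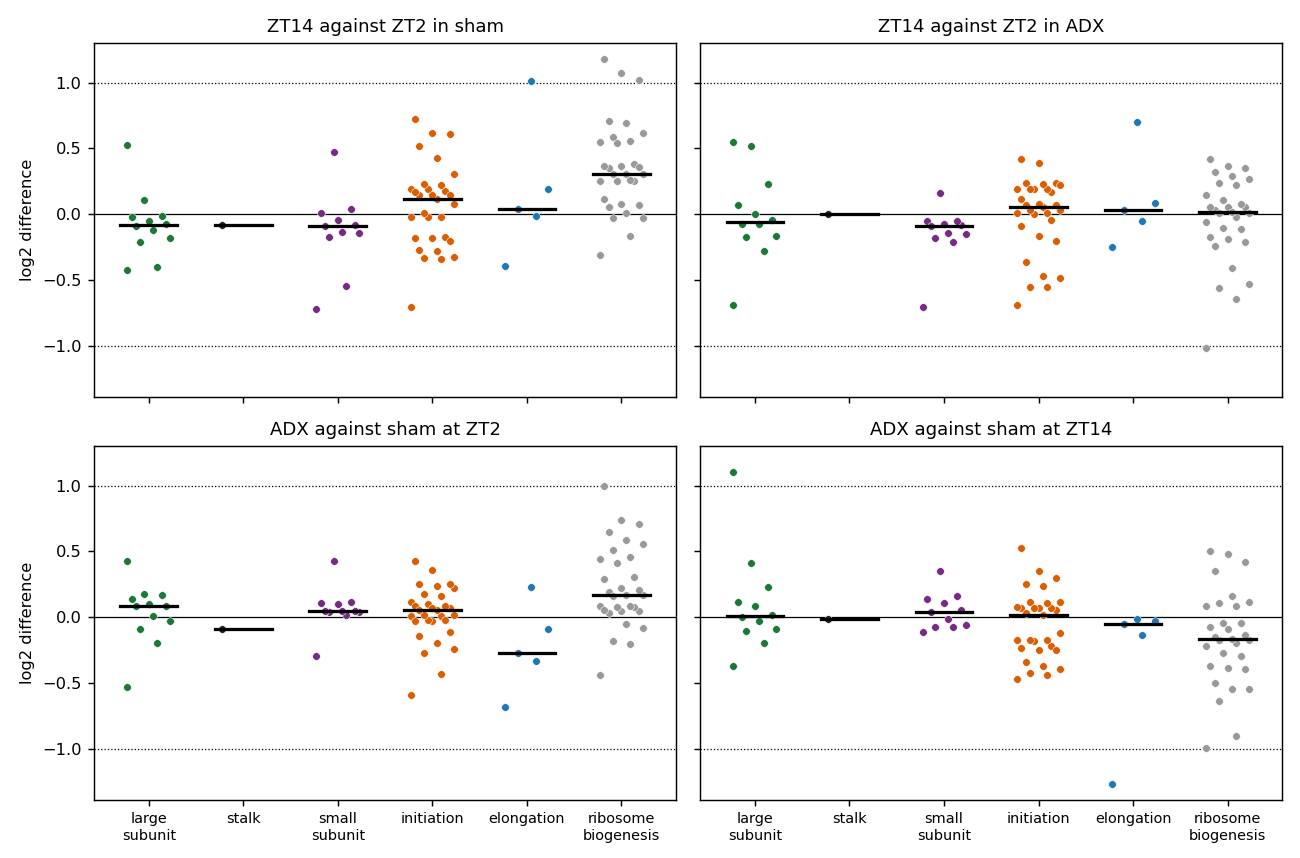
Log2 difference (vertical axis, dotted lines at 2-fold) of each gene Present on all 4 arrays in the 4 comparisons, by class and, in grey, for ribosome biogenesis genes, with the class median as a black bar. The ribosomal protein classes centre near 0 in every panel, Eef1a2 and Rpl22 are the members past the dotted lines, and the biogenesis genes have a median of 0.31 in the sham pair and 0.02 in the ADX pair.

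An additive fit of time and operation with limma over 5872 probe sets Present on at least 2 arrays gave the only p-values the design allows. It has 1 residual degree of freedom, and what is said to separate the arrays is their group alone, so its p-values reflect no more than how these arrays differ among themselves, which may be technical. At an adjusted p under 0.05 the fit called no member for time (0.0341% of all tested probe sets were called) and none for operation (0%). At an unadjusted p under 0.05 it called 3 of the 62 members for time, against 13.2% of all, and 2 for operation, against 5.6%. For time these were Rps19 with a log2 difference of -0.62 (SE 0.16, adjusted p = 0.308 in limma), Eif4e2 with 0.52 (SE 0.16, adjusted p = 0.344 in limma) and Rpl13a with -0.54 (SE 0.17, adjusted p = 0.347 in limma). For operation they were Eif5b with -0.45 (SE 0.15) and Eef1a2 with -0.79 (SE 0.28), each at an adjusted p of 0.83 in limma. When the prior variance was allowed to follow the signal, Rps19 was called for time (SE 0.12, adjusted p = 0.0405 in limma), as were 2.62% of all probe sets. No member was called for either effect under the other alternatives of the fit.

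The genes that build ribosomes were read beside those that make them up. Of 39 ribosome biogenesis genes on the array 36 were measured, and 4 were past 2-fold higher at ZT14 in sham, against 3.21% of all probe sets, while in ADX none was higher and 1 was lower, against 4.97% in either direction. In ADX against sham 2 were past 2-fold higher at ZT2 (Brix1 and Mybbp1a) and 1 at ZT14, against 2.43% and 3.71% in either direction. Of all 6583 measured probe sets 108 were past 2-fold higher at ZT2 and 147 at ZT14. Nop56, a core protein of box C/D ribonucleoproteins that guide RNA methylation, had 24.4, 55.5, 40.9 and 38.2 units. Brix1 and Rrs1, assembly factors of the large subunit, had 37.3, 78.5, 74.6 and 50.7 units and 23.1, 47.0, 31.9 and 38.4 units. Mybbp1a, a nucleolar protein that acts in ribosomal RNA synthesis and processing, had 15.1 (Marginal), 30.2, 30.3 and 29.7 units. In all of these genes sham ZT2 was the lowest array, which follows in part from their being named for a signal past 2-fold above it. Of the 31 biogenesis genes Present on all arrays 27 were higher at ZT14 in sham, with a median of 0.31, and 18 in ADX, with a median of 0.02. Over all probe sets Present on all arrays 48.8% and 49.8% were higher at ZT14, against 87.1% and 58.1% of the biogenesis genes. In ADX against sham 26 of the 31 were higher at ZT2 and 9 at ZT14, with medians of 0.17 and -0.16, where 50.1% and 51.7% of all were higher. The sham pair shares the sham ZT2 array with the comparison at ZT2 and the sham ZT14 array with the comparison at ZT14. These shifts are therefore not independent of one another. Polr1e, a subunit of RNA polymerase I, had 12.4, 19.9, 20.2 and 10 units and was past 2-fold lower at ZT14 in ADX, and the dim Nvl (5.6, 7.1, 10.1 and 14.3 units) was past 2-fold higher in ADX at ZT14.

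Genes acting beside the ribosome were read as well. Of 19 measured aminoacyl-tRNA synthetases only Tars, which charges threonine tRNA, was past 2-fold, at 365, 169.8, 293 and 139 units. Both ZT14 arrays were lower, by 2.15-fold in sham and 2.11-fold in ADX, where 5.57% and 4.97% of all measured probe sets were past 2-fold. Of 18 measured kinases and signalling genes 2 were past 2-fold higher and 1 lower at ZT14 in sham. In ADX 2 were higher and none lower. ADX against sham gave 1 higher and 2 lower at ZT2, against 2.43% of all, and 1 higher and 1 lower at ZT14, against 3.71%. Mknk2, a kinase of eIF4E, was higher at ZT14 in both pairs, at 49.7, 120.4, 44.9 and 112 units. Max, the partner of Myc, had 41.7, 86.1, 63.4 and 69.3 units and was past 2-fold in sham only by the rule used, and the difference between the pairs was not tested. A further 3 genes of the list (Eif2ak2, Eif2ak4 and Myc) passed 2-fold in some comparison with all signals under 15 units. None of 58 measured mitochondrial ribosomal proteins and none of 16 other ribosome and termination genes was past 2-fold in any comparison, against the shares of 2.43% to 5.57% of all measured probe sets given above. For lists of this length such shares amount to few genes.

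The members Present on no array were Rpl35a, Rpl38, Rpl39, Rpl39l, Rps13, Rps14, Rps15, Rps20, Rps27l and Rps29 among the ribosomal proteins, Eif3f, Eif4enif1, Eif4h and Eif5a among the initiation genes, and Eef1b2, Eef1g and Eef2k. Several of these encode obligatory parts of the ribosome, so an Absent call here describes the probe set and gives no level for the messenger. Another 31 probe sets measured members that have a brighter one, and 23 of them were Present on no array. A further 40 probe sets with several symbols, at least 1 of them fitting the rule, were left out of the naming of genes.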

How the data were processed

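Per the file headers, the deposited value of each probe set is a linear intensity, the Affymetrix Signal of a single-array run. A detection p-value was deposited too, beside a call (Present, Marginal or Absent), and was used here only through that call. Software version and scaling target were not given in the sources used here, and the arrays' own 2% trimmed means differed (55.69 to 64.24). The series table held the same values (largest difference 0).

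Each array was multiplied to a common trimmed mean (factors 0.925 to 1.067), signals under 3.91 were raised to 3.91 (the lowest Present or the median Absent value, whichever was larger), and values were turned to log2. Without 66 control probe sets 12422 stayed, of which 6583 were Present on at least 1 array and entered the comparisons (measured). Genes were named from the platform annotation, which gave 1 symbol to 10833 of these probe sets, several to 396 and none to 1193. Groups came from the sample titles. Where the dimmer array was not Present, a fold is a lower bound. Only 4 arrays exist, which limits the precision, and a scaling factor of one array moves all its genes together.

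limma 3.58.1 in R 4.3.3 fitted time plus operation with Benjamini-Hochberg adjustment, and Python 3.11.15 ran the rest. The fit and the fold rule were tested on simulated data. Named were members past 2-fold in any comparison, the 5 highest and 5 lowest differences of each, the brightest and dimmest of each class, and a set of known regulators. Others of their groups were added for their role. Of that set Eif2s1, Eif4g1, Rpl11, Rpl3 and Rps6 have no probe set with a single symbol. Genes of other lists were named past 2-fold. The members and lists were chosen with earlier results of these data known. Alternatives tried were the scaling, floor, detection filter, probe set rule, fold threshold, variance prior and model terms. Promoter windows came from RefSeq (GRCm38.p6), matched by gene identifier for 64 of 79 members.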

Additional observations from a re-analysis of the deposited data

Results flagged for a closer look

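In 2 members the day-night difference ran one way in sham and the other way in ADX, by at least 0.25 on the log2 scale in each pair, on probe sets Present on every array. For Rpl22 the log2 difference of ZT14 minus ZT2 was -0.42 in sham and 0.52 in ADX, so ADX minus sham was 0.94. For Rpl7l1 it was 0.53 in sham and -0.28 in ADX, so ADX minus sham was -0.8. Each value comes from 1 array per group, so the difference between the pairs was not tested, and 19 of 60 members had opposite signs of some size. Among those under 0.25 in one pair, Eif4ebp1 (-0.70 in sham and 0.19 in ADX) had an ADX minus sham difference of 0.89, larger than that of Rpl7l1.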

How the results depend on the processing

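Over 87 recomputed values of 11 results 78 stayed close to the value reported and 9 moved. A count was close when within 1.5-fold of the one reported. For medians the margin was wider than the medians themselves, so a change of sign could pass as close. That of the sham pair, reported as -0.02, ran from -0.10 to 0.03 and was counted as close throughout. The count of members past 2-fold in the sham pair was 1 and became 0 with quantile normalization and 0 in the signals as deposited. At ZT14 in ADX against sham it was 3 and became 1 (Eef1a2) with the mean of all probe sets of a gene. A threshold of 1.5-fold gave 6 in the sham pair, 5 in the ADX pair and 2 at ZT2. In the signals as deposited the median log2 difference of the members for ADX against sham was -0.12 at ZT2 and -0.14 at ZT14, in place of 0.05 and -0.01, beside a shift of all measured probe sets to medians of -0.15 and -0.10, so the sign at ZT2 turned with the scaling of all genes. Time effects by limma went from 0 members to 1 (Rps19) with the variance prior following the signal, and from 2 probe sets to 154. That total was 18 in the signals as deposited, 11 without the operation term, and 0 with the high floor or no detection filter, where 882 and 1414 had an unadjusted p under 0.05. Of all probe sets, 211 were higher and 156 lower by the 2-fold rule in the sham pair, which became 93 and 64 when Present calls on all arrays were required and 79 and 63 with the high floor. With quantile normalization that split was 161 higher and 193 lower, and in the signals as deposited 173 and 198. Between 40 and 46 members kept the same sign in both pairs, against 42 of the 62 measured. No paired analysis was possible because each group has 1 array and the labels give no replicate numbers, and no replicate could be left out for the same reason. Signal over background limits the dimmest members, such as Eif4e and Eif2s2.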
